A study of Mus musculus with 16 samples.

Results

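The miR-15, miR-16 and miR-322 family comprised 4 microRNAs (miRNAs) here, mmu-miR-15a-5p, mmu-miR-15b-5p, mmu-miR-16-5p and mmu-miR-322-5p (the prefix for mouse is left out from here on), chosen by name from the 1247 mouse miRNAs on the array. All 4 were present, and all 4 were among the 231 miRNAs tested. They were measured in RAW264.7 cells, a mouse macrophage-like line, in 4 groups of 4 arrays, with 1 array per group from each of 4 independent experiments. Th2_IL33 cells were grown for 48 h with interleukin-4 and interleukin-13, the Th2 cytokines (10 ng per ml), and then stimulated for 4 h with recombinant murine interleukin-33 (IL-33, 20 ng per ml). Th2 cells received the cytokines without IL-33, Media_IL33 cells received IL-33 after growth in medium alone, and Media cells received neither. All groups were the same line in serum-containing medium, with no genetic change given in the labels. Replicate numbers 1 to 4 are the experiments.

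miRNAs guide Argonaute proteins to messenger RNAs through their seed, the bases near the 5′ end that pair with the target, so that miRNAs with 1 seed share many predicted targets. The miR-15 and miR-16 family is known for restraining the cell cycle, through targets that include cyclin D1, cyclin E1 and the survival factor Bcl2, and human MIR15A and MIR16-1 are lost in many chronic lymphocytic leukaemias. miR-322 belongs to the same seed family and is known from mouse muscle differentiation, where it represses Cdc25a.

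The mature sequences are shown because the family is defined by them. Each is written 5′ to 3′ with the seed, bases 2 to 8, in capitals.
miR-15a-5p: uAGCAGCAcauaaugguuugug
miR-15b-5p: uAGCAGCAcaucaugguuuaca
miR-16-5p: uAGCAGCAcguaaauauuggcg
miR-322-5p: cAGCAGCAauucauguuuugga
They are RefSeq sequences on build GRCm38.p6, in which all 4 members were matched. The seed AGCAGCA is the same in all 4, and every difference between members lies outside bases 2 to 8. Counted from 1 at the 5′ end, miR-15a-5p and miR-15b-5p differ at 4 of 22 bases (A12C, G20A, U21C and G22A, miR-15a-5p first), the fewest of the 6 pairs. miR-16-5p and miR-322-5p differ at 10, the most, and the other pairs at 6 to 8.

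The members come from 3 loci. miR-15a-5p lies at chr14:61632075-61632096 on the minus strand, beside a copy of miR-16-5p (gene Mir16-1) at chr14:61631936-61631957, both within Dleu2, a non-coding RNA gene. miR-15b-5p lies at chr3:69009775-69009796 on the plus strand, beside the other copy of miR-16-5p (Mir16-2) at chr3:69009918-69009939, both within Smc4, which encodes a condensin subunit. miR-322-5p lies at chrX:53054306-53054327 on the minus strand, within C430049B03Rik. Mature miR-16-5p is identical from both copies, so its signal cannot be divided between the loci.

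Each member was read by 2 probes, DNA sequences complementary to the miRNA from its 3′ end towards its 5′ end, with 20 spots per probe. The longer probe of each pair is shown because it sets how much of the shared seed the array reads. Capitals mark the bases that lie opposite the seed.
miR-15a-5p: cacaaaccattatgTGCTGCTa
miR-15b-5p: tgtaaaccatgatgTGCTGC
miR-16-5p: cgccaatatttacgTGCT
miR-322-5p: tccaaaacatgaatTGCTGCTg
The shorter probes end 1 base earlier. The miR-15a-5p and miR-322-5p probes covered the whole seed, whereas the longer miR-16-5p probe covered 4 of its bases, and all 8 probes contained the member's 3′ part, where the sequences differ. Hybridisation of a member to another member's probe was not tested. Because probes differ in length and sequence, a level is compared between groups for 1 member and not between members.

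Relative signal is the summed probe signal of a miRNA, scaled so that 1 is the 75th percentile of the miRNAs that every array detected. The scanner software called all 4 members detected on 16 of 16 arrays. The probes of miR-15a-5p, miR-15b-5p and miR-16-5p were well above background on every array. The probes of miR-322-5p lay nearer background. Its shorter probe was well above background on 10 arrays and its longer probe on 14. Both of its probes were so on all 8 Th2_IL33 and Th2 arrays, at least 1 was on 4 of 4 Media_IL33 arrays, and at least 1 was on 2 of 4 Media arrays. Over the arrays the spots of 1 probe varied around their mean with a median coefficient of variation of 14.9% for miR-322-5p and of 4.78% to 8.12% for the other members.

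The arrays detected 206 to 256 miRNAs each, and no spot was saturated. Arrays of 1 group correlated over the tested miRNAs with a median r of 0.985 (0.811 to 0.997, 24 pairs). All 5 macrophage miRNAs looked for were tested, and their summed relative signal was 23.6 to 31.9 in Th2_IL33, 17.9 to 26.1 in Th2, 14.8 to 21.2 in Media_IL33 and 8.24 to 17.5 in Media. Most of the sum was miR-21a-5p, with means of 24.6 in Th2_IL33, 18.7 in Th2, 16.2 in Media_IL33 and 11.1 in Media. By contrast, miR-142a-3p had 0.780 in Th2_IL33, 0.762 in Th2, 0.798 in Media_IL33 and 0.850 in Media. The means of miR-223-3p were 0.875 in Th2_IL33, 0.980 in Th2, 0.408 in Media_IL33 and 0.444 in Media. Unlike the rest of the list, miR-155-5p was not detected on every array. It was detected on 11 arrays and well above background on 9. Of 8 miRNAs of muscle, liver, neurons, red cells and epithelium, 7 were detected on no array. The eighth, miR-206-3p, was called detected on 11 arrays and was tested, but was never well above background.

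miR-15a-5p, from the Dleu2 locus, had relative signals of 0.715, 0.830, 0.723 and 0.763 in Th2_IL33 (replicates 1 to 4) and of 0.718, 0.717, 0.640 and 0.727 in Th2. In Media_IL33 it had 0.609, 0.672, 0.678 and 0.710, and in Media 0.950, 0.553, 0.515 and 0.736. The Media arrays held both the highest and the lowest of the 16 values. The group means were 0.758 ± 0.0525 in Th2_IL33, 0.700 ± 0.0407 in Th2, 0.667 ± 0.0424 in Media_IL33 and 0.689 ± 0.199 in Media (SD, n = 4 each). Every Th2_IL33 value exceeded every Media_IL33 value, and all other pairs of groups compared overlapped.

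miR-15b-5p, from the Smc4 locus, had relative signals of 2.01, 2.01, 1.64 and 2.04 in Th2_IL33 and of 1.83, 2.16, 1.73 and 1.89 in Th2. In Media_IL33 it had 1.56, 1.64, 1.83 and 1.99, and in Media 2.35, 1.99, 1.24 and 2.10. Its 4 group means lay close together and every pair of groups compared overlapped. They were 1.93 ± 0.193 in Th2_IL33, 1.90 ± 0.182 in Th2, 1.75 ± 0.195 in Media_IL33 and 1.92 ± 0.477 in Media (SD, n = 4 each).

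miR-16-5p, made from both loci, had relative signals of 1.92, 2.14, 1.54 and 2.10 in Th2_IL33 and of 2.18, 2.20, 1.94 and 1.79 in Th2. In Media_IL33 it had 1.47, 1.55, 1.97 and 2.04, and in Media 2.04, 1.61, 1.44 and 2.31. Low and high arrays occurred in each group and every pair of groups compared overlapped. The means were 1.92 ± 0.275 in Th2_IL33, 2.03 ± 0.199 in Th2, 1.76 ± 0.288 in Media_IL33 and 1.85 ± 0.397 in Media (SD, n = 4 each).

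miR-322-5p, from the X chromosome, had relative signals of 0.115, 0.125, 0.115 and 0.128 in Th2_IL33 and of 0.120, 0.116, 0.112 and 0.122 in Th2. In Media_IL33 it had 0.0795, 0.0865, 0.0984 and 0.0961, and in Media 0.130, 0.0898, 0.0582 and 0.0997. All 8 arrays of cells grown in Th2 cytokines exceeded 7 of the 8 arrays of cells grown in medium alone. The exception was Media replicate 1, the highest array of all. The share of all tested miRNAs with such a split was not counted, so the split is not shown to be particular to miR-322-5p. The means were 0.121 ± 0.00660 in Th2_IL33, 0.118 ± 0.00462 in Th2, 0.0901 ± 0.00877 in Media_IL33 and 0.0943 ± 0.0294 in Media (SD, n = 4 each).

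**Figure D1:**
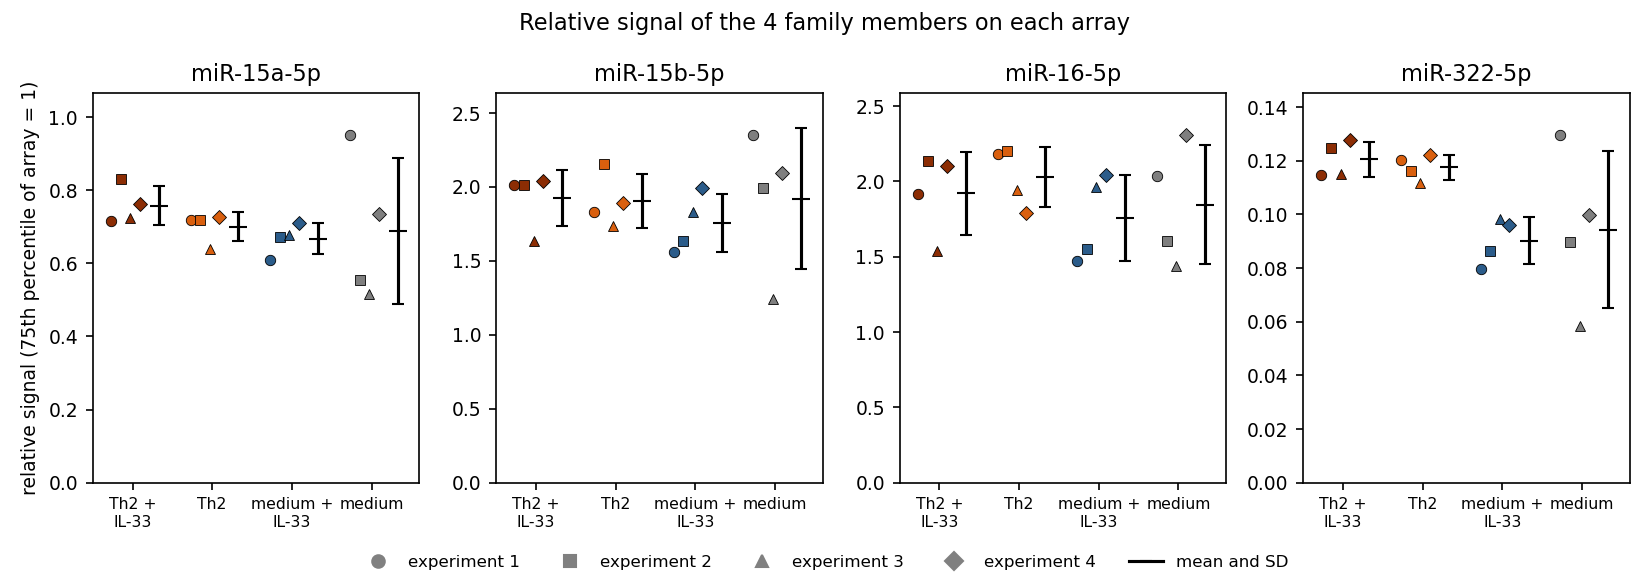
Relative signal (75th percentile of the array = 1, linear axes from 0, 1 scale per panel) of the 4 members on each of the 16 arrays, with marker shapes for the 4 experiments and bars for the group mean and SD (n = 4). The miR-322-5p points of Th2_IL33 (0.115 to 0.128) and Th2 (0.112 to 0.122) lie above all Media_IL33 points (0.0795 to 0.0984), while the Media points spread from 0.0582 to 0.130.

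The first comparison asked what growth in Th2 cytokines did without IL-33 (Th2 with Media). In limma's moderated test, adjusted by the Benjamini-Hochberg method over the 231 tested miRNAs, 0 of 4 members passed the threshold of 0.05, and 0 had an unadjusted p under 0.05. Of all tested miRNAs 22 passed (9.52%), 24.2% had an unadjusted p under 0.05, and 10.8% did not overlap between the groups, as against 0 of the 4 members. The members' median log2 difference was 0.11, against 0.063 over all tested miRNAs. miR-322-5p had the largest of the 4, 0.37 ± 0.18 (SE), a 1.30-fold higher level with a 95% interval of 0.994- to 1.69-fold (limma adjusted p = 0.218), and was higher in 3 of 4 experiments. miR-16-5p had 0.16 ± 0.17 (adjusted p = 0.647 by limma), miR-15a-5p 0.066 ± 0.16 (0.888) and miR-15b-5p 0.022 ± 0.17 (0.966). The intervals of those 3 reached folds of 1.43, 1.32 and 1.31 upward and of 0.868, 0.828 and 0.788 downward. Changes within those bounds were therefore not excluded with 4 arrays a group.

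For miR-322-5p the Th2 difference turned on the Media arrays. Without Media replicate 1, the highest, it was 0.55 and passed (limma adjusted p = 0.0378), and without Media replicate 3, the lowest, it was 0.16 and did not. Media replicate 1 lay on slide 2 with Th2 replicate 4, and the other 3 arrays of each group on slide 1. Within slide 1 the 3 Th2 arrays all exceeded the 3 Media arrays (difference of 0.53), and between the single arrays of slide 2 the difference was -0.086. The sign differed between slides for the other members too, with 0.13 to 0.27 on slide 1, with overlap, and -0.19 to -0.39 on slide 2. With normexp background correction, an alternative that models the background of each spot and adds an offset of 50, the miR-322-5p difference was 0.086. The median over all tested miRNAs was then 0.0038. What lowered the difference was not tested.

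The second comparison asked the same in IL-33-stimulated cells (Th2_IL33 with Media_IL33), with no array in common with the first. Again 0 of 4 members passed the adjusted threshold in limma, where 22 of 231 miRNAs did (9.52%). The members' median difference was 0.16, against 0.080 over all tested miRNAs. miR-322-5p differed by 0.42 ± 0.18 (SE), 1.34-fold with a 95% interval of 1.03- to 1.75-fold, and was higher in 4 of 4 experiments (unadjusted p = 0.0328, limma adjusted p = 0.201). For every member limma's SE and interval pool the spread of all 4 groups, including Media, which is on neither side here. The log2 SD of miR-322-5p was 0.48 in Media, 0.079 in Th2_IL33 and 0.14 in Media_IL33. An unadjusted p under 0.05 was seen for 1 of 4 members and for 20.3% of all tested miRNAs. The 4 Th2_IL33 values and 4 Media_IL33 values of miR-322-5p did not overlap, and neither did those of miR-15a-5p. The latter differed by 0.18 ± 0.16 (limma adjusted p = 0.511), although each of its 2 probes alone overlapped. Of all tested miRNAs 16% did not overlap between these groups. miR-15b-5p (0.13 ± 0.17) and miR-16-5p (0.13 ± 0.17) had an adjusted p of 0.615 each in limma. Within slide 2, with 4 Th2_IL33 and 2 Media_IL33 arrays, the differences were 0.24 for miR-15a-5p and 0.26 for miR-15b-5p, both without overlap, and 0.34 for miR-16-5p, with overlap.

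Both miR-322-5p probes gave this difference, with 0.43 for the shorter and 0.42 for the longer, and neither overlapped between the groups. Slide 2 held all 4 Th2_IL33 arrays and 2 of the Media_IL33 arrays, and within it the difference of miR-322-5p was 0.54, without overlap. The call was reached without Media replicate 3 (0.42, limma adjusted p = 0.0211), an array of neither group that enters through the shared spread. It was also reached with array weights (0.41, adjusted p = 0.00394) and with normexp, where the difference was 0.22 (adjusted p = 0.0462).

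Between doubly treated and untreated cells (Th2_IL33 with Media) 0 of 4 members passed in limma, where 24 of 231 miRNAs did (10.4%). miR-322-5p alone had an unadjusted p under 0.05, as did 28.6% of all tested miRNAs, and 0 of 4 members stood without overlap, beside 14.7% of all. With the experiment number as a block 42 miRNAs passed, still with 0 of the 4 members. miR-322-5p differed by 0.41 ± 0.18 (1.33-fold, limma adjusted p = 0.147). It was 0.58 without Media replicate 1 and then passed (adjusted p = 0.0210 in limma), and 0.20 without Media replicate 3, where it did not. On slide 2, with 4 Th2_IL33 arrays and Media replicate 1, it was -0.11. The differences of the other members were 0.038 to 0.18. All tested miRNAs had a median of 0.13 in this comparison, and the 4 members' median was 0.13 as well.

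A contrast added after the values were seen averaged the Th2 difference over cells without and with IL-33. In it 1 of 4 members passed, against 46 of 231 miRNAs (19.9%). miR-322-5p was 1.32-fold higher with Th2 cytokines (95% interval 1.09- to 1.59-fold, log2 difference 0.40 ± 0.13, limma adjusted p = 0.0383). The median of all tested miRNAs was 0.096, so miR-322-5p stood 0.30 above it. The call did not pass with slide as a block (0.37, adjusted p = 0.0743 in limma), with quantile normalization (0.30, 0.332), with the percentile over all miRNAs (0.35, 0.278), in the authors' deposited table (0.33, 0.417) or with the brighter probe alone (0.25, 0.0846). It was also lost without any 1 of 10 arrays, namely Media 2, Media_IL33 1 or 2, every Th2 array, and Th2_IL33 1, 2 or 4 (differences of 0.37 to 0.41, limma adjusted p of 0.0542 to 0.0728). miR-15a-5p (0.13, adjusted p = 0.414 in limma), miR-15b-5p (0.078, 0.609) and miR-16-5p (0.14, 0.391) did not pass.

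**Figure D2:**
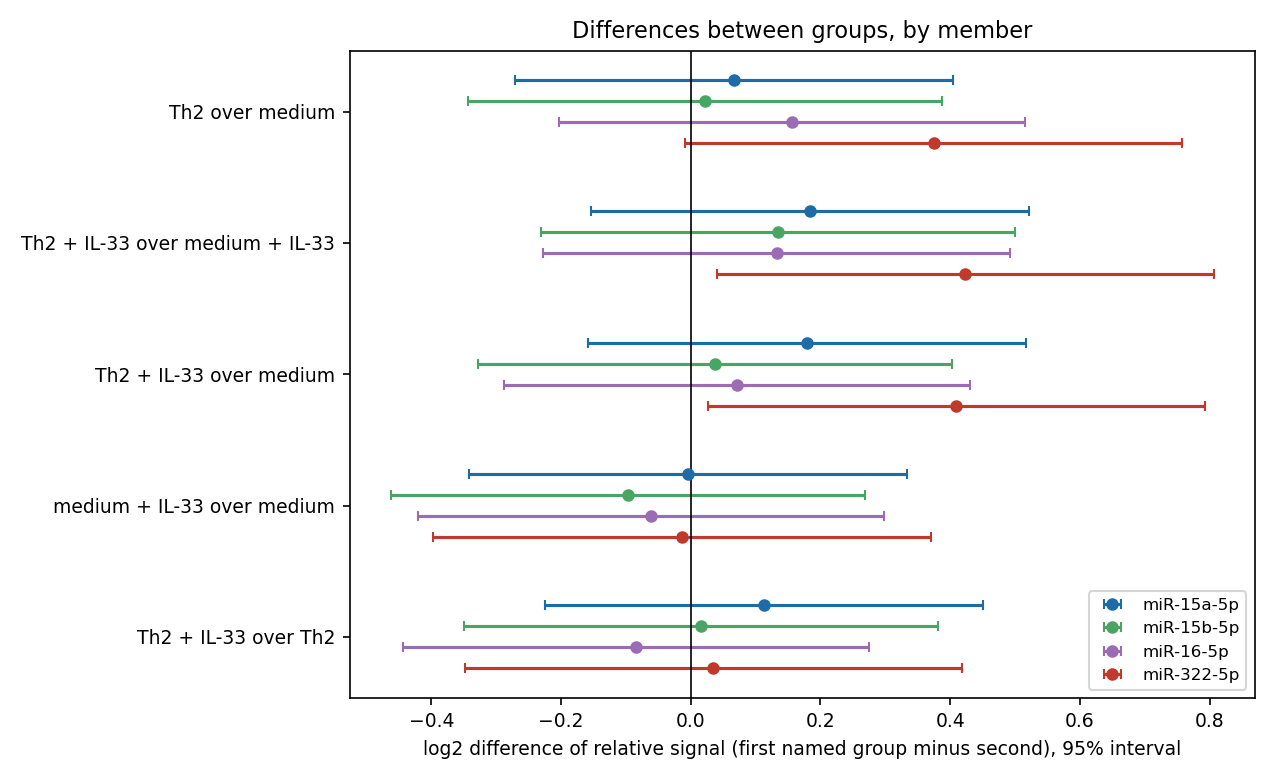
Log2 difference of relative signal (first named group minus second) for each member in 5 comparisons, with points for the limma estimate and bars for its 95% interval (4 arrays a group). In the 3 comparisons with Th2 cytokines the miR-322-5p estimate (0.37 to 0.42) lies right of the other members. The intervals of those members all cross 0, and so does that of miR-322-5p in Th2 with Media. In the IL-33 comparisons every interval crosses 0.

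The IL-33 comparisons asked how 4 h of the alarm cytokine changed the family. In medium-grown cells (Media_IL33 with Media) 0 of 4 members passed in limma and 0 had an unadjusted p under 0.05, where 4 of 231 miRNAs passed (1.73%) and 6.06% had such a p. The groups overlapped for all 4 members, and 2.16% of all tested miRNAs did not overlap. The differences were -0.0043 ± 0.16 for miR-15a-5p, -0.097 ± 0.17 for miR-15b-5p, -0.061 ± 0.17 for miR-16-5p and -0.014 ± 0.18 for miR-322-5p, and limma's adjusted p was 1 for all 4. The 95% intervals of the 4 lay between 0.726- and 1.29-fold. The sign differed between slides for every member. Within slide 1 (2 Media_IL33 and 3 Media arrays) the differences were 0.14 to 0.27, with overlap, and within slide 2 (2 Media_IL33 arrays and Media replicate 1) they were -0.43 to -0.64.

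In Th2-grown cells (Th2_IL33 with Th2) 0 of 4 members likewise passed in limma, with 0 at an unadjusted p under 0.05 and 4 of 231 miRNAs past the threshold (1.73%, and 2.6% at an unadjusted p under 0.05). All 4 members overlapped between the groups, where 3.9% of all tested miRNAs did not. miR-15a-5p differed by 0.11 ± 0.16, miR-15b-5p by 0.016 ± 0.17, miR-16-5p by -0.085 ± 0.17 and miR-322-5p by 0.035 ± 0.18, and limma's adjusted p was again 1 for all 4. The intervals, which again pool the spread of all 4 groups, lay between 0.735- and 1.37-fold. Within slide 2, which held 4 Th2_IL33 arrays and 1 Th2 array, the differences were -0.020 to 0.091. The interaction, which subtracts the IL-33 difference without Th2 cytokines from the one with them, was -0.024 to 0.12 for the members (adjusted p of 0.995 each in limma). It was past the threshold for 0 of 231 miRNAs (0%), while 5 of 231 had an unadjusted p under 0.05 (2.16%), none of them a member. A contrast added after the values were seen, IL-33 averaged over both growth conditions, called 0 of 4 members and 5 of 231 miRNAs (2.16%).

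The same-seed members were then compared in change within each array, where the array's own scale cancels. The log2 ratio of miR-322-5p to miR-15a-5p averaged -2.65 ± 0.065 in Th2_IL33, -2.57 ± 0.043 in Th2, -2.89 ± 0.077 in Media_IL33 and -2.88 ± 0.21 in Media (SD, n = 4 each). The ratio to miR-15b-5p averaged -3.99 ± 0.12 in Th2_IL33, -4.01 ± 0.13 in Th2, -4.28 ± 0.069 in Media_IL33 and -4.37 ± 0.13 in Media. The ratio to miR-16-5p averaged -3.99 ± 0.17 in Th2_IL33, -4.10 ± 0.16 in Th2, -4.28 ± 0.11 in Media_IL33 and -4.32 ± 0.31 in Media. All 3 ratios therefore had higher means in both groups grown with Th2 cytokines than in both groups grown without.

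Between Th2_IL33 and Media_IL33 the ratios of miR-322-5p differed by 0.24 (to miR-15a-5p), 0.29 (to miR-15b-5p) and 0.29 (to miR-16-5p), and none of the 3 overlapped between these groups. They share miR-322-5p, whose own values did not overlap here, so they are not 3 separate results. In relative signal 16% of all tested miRNAs did not overlap between these groups, and the share among other ratios was not counted. Each of the 3 ratios had a two-sided exact permutation p of 0.0286, the smallest that 4 arrays against 4 allow. Adjusted over the 24 tests of 6 ratios in 4 comparisons it was 0.229, and 0 of 24 passed. A test at the smallest p can pass this adjustment only if many of the 24 share that p. Not passing therefore decides nothing about these ratios. The difference in the ratio to miR-15a-5p was -0.000462 with quantile normalization, and its highest value under the 14 settings run was 0.27. Between Th2 and Media the same ratios differed by 0.31, 0.35 and 0.22, with overlap and exact permutation p of 0.0571, 0.0571 and 0.257 (adjusted 0.229, 0.229 and 0.686). Among the ratios without miR-322-5p the smallest adjusted exact permutation p was 0.392, for miR-15a-5p to miR-16-5p in Th2_IL33 with Th2 (0.20).

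**Figure D3:**
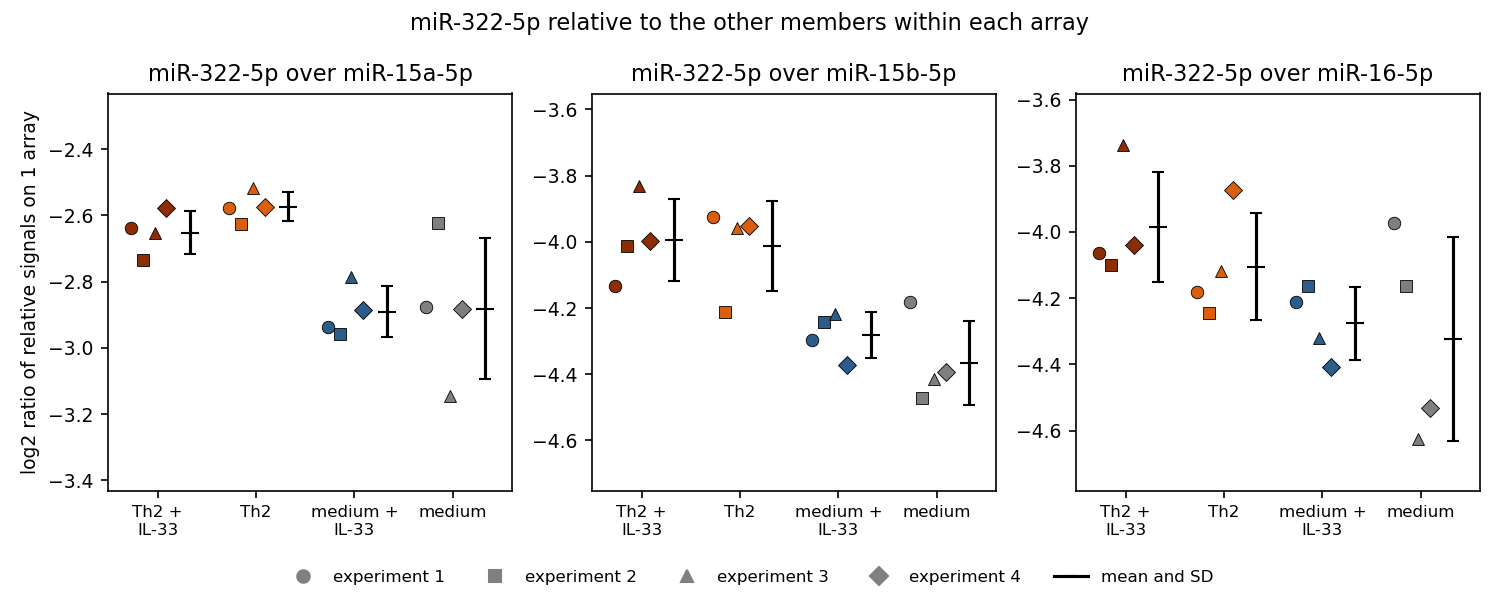
Log2 ratio of the relative signal of miR-322-5p to that of each other member on the same array (equal span on the 3 axes, which do not start at 0), with marker shapes for the 4 experiments and bars for the mean and SD (n = 4). In each panel all Th2_IL33 points lie above all Media_IL33 points. The Media points to miR-15a-5p and miR-16-5p overlap both ranges without reaching the highest Th2_IL33 point.

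The members varied together from array to array. Over the 16 arrays their log2 relative signals correlated with Pearson's r of 0.65 to 0.82 (6 pairs), highest for miR-15a-5p with miR-322-5p, as a description of arrays that share groups, experiments and the scaling of each array. Without Media 1 and 3 (14 arrays) the r of the 6 pairs was 0.38 to 0.76. Media replicate 3 was the lowest array for all 4 members, with deviations of -0.34 to -0.64 from its group mean on the log2 scale. Media replicate 1 was the highest for miR-15a-5p, miR-15b-5p and miR-322-5p, 0.51, 0.33 and 0.51 above its group mean, and Media replicate 4 was the highest for miR-16-5p. All 4 members lay above their group mean together on 6 arrays and below it together on 4. What set these shared deviations was not tested.

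**Figure D4:**
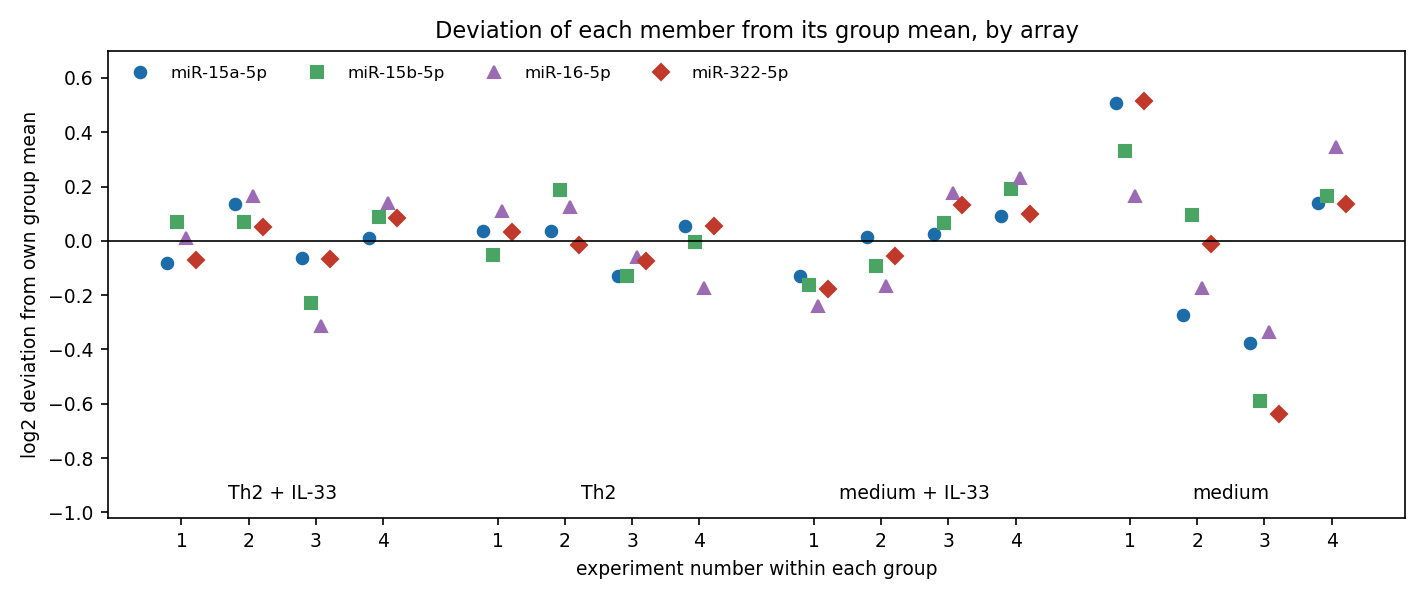
Deviation of each member's log2 relative signal from its own group mean on each of the 16 arrays, grouped as Th2_IL33, Th2, Media_IL33 and Media, with 1 marker per member. Deviations on Th2_IL33, Th2 and Media_IL33 arrays stay within -0.31 and 0.23, while Media replicate 1 reaches 0.51 and Media replicate 3 reaches -0.64.

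The spread of the members about their group means was not unusual for this data set. Their residual standard deviations were 0.22 (miR-15a-5p), 0.24 (miR-15b-5p), 0.24 (miR-16-5p) and 0.26 (miR-322-5p) on the log2 scale, beside a median of 0.26 over the 231 tested miRNAs. The group SD of miR-322-5p was 0.079 in Th2_IL33, 0.057 in Th2, 0.14 in Media_IL33 and 0.48 in Media, and for all 4 members Media had the largest group SD.

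The 3 tested miRNAs whose pattern over the 16 arrays was most like that of each member were found by Pearson's r of log2 relative signal. For miR-322-5p they were let-7a-5p (0.95), let-7b-5p (0.95) and let-7g-5p (0.94), members of the let-7 family. For miR-15a-5p they were let-7i-5p (0.92), miR-350-3p (0.90) and let-7g-5p (0.90). For miR-15b-5p they were let-7d-5p (0.96), miR-130b-3p (0.93) and miR-10a-5p (0.90). For miR-16-5p they were miR-103-3p (0.92), miR-26b-5p (0.91) and miR-107-3p (0.90). Only miRNAs outside the family were ranked, but over the 16 arrays no member would have been among another member's 3 nearest. The r between members was 0.65 to 0.82, against 0.90 or more for every miRNA named here with its member. The members' median r of 0.34 to 0.47 with all tested miRNAs shows how much of such likeness the arrays share. let-7a-5p, the nearest to miR-322-5p, differed by 0.40 ± 0.16 in Th2 with Media (limma adjusted p = 0.127) and by 0.37 ± 0.16 in Th2_IL33 with Media_IL33 (0.201).

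Other miRNAs with the same seed were at the limit of detection. Of 6 on the array none was well above background on any array and 0 were tested. miR-195a-5p was called detected on 6 arrays and miR-497a-5p on 4, and the other 4 on none. Both are shown because their seed is that of the family and their 3′ parts resemble those of miR-16-5p and miR-15a-5p.
miR-195a-5p: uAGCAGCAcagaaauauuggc
miR-497a-5p: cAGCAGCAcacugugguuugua
Over 21 bases miR-195a-5p differs from miR-16-5p at 2 (G10A and U11G, miR-16-5p first), and miR-497a-5p differs from miR-15a-5p at 5 of 22. The miR-195a-5p probes had a relative signal of 0.0229 to 0.0429 over the arrays.

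The partner strands, cut from the other arm of the same hairpins, were likewise dim. Of 5 on the array (miR-15a-3p, miR-15b-3p, miR-16-1-3p, miR-16-2-3p and miR-322-3p) none was well above background on any array, and miR-15a-3p was called detected on 1. Use of the Dleu2 or the Smc4 copy of miR-16 could therefore not be read from these strands at this signal. The other 11 miRNAs of the X-chromosomal cluster of miR-322, which include miR-503-5p, miR-351-5p, miR-542-3p and miR-450a-5p, were detected on 0 of 16 arrays. miR-503-5p is shown because its start is close to the family seed without being it (AGCAGCG in bases 2 to 8).
miR-503-5p: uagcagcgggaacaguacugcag
Its relative signal was -0.0028 to 0.015 after background subtraction.

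Of 8 other miRNAs described as cell cycle repressors or p53 targets, all were tested. The list was chosen with earlier results of these data known, so its counts and medians are a description only. In Th2 with Media 1 of 8 passed the limma threshold, and it was higher, against 8.66% of all tested miRNAs. It was miR-34a-5p, a direct p53 target, at 1.45 ± 0.0516 in Th2 and 0.870 ± 0.282 in Media (SD, n = 4 each, log2 difference 0.79 ± 0.17, limma adjusted p = 0.00558). It was also the only one of the 8 to pass in Th2_IL33 with Media_IL33 (0.80 ± 0.17, adjusted p = 0.00621 in limma), against 8.23% higher over all miRNAs. In the averaged Th2 contrast, added after the values were seen, 4 of 8 passed, all higher. Of all 231 tested miRNAs 46 passed (19.9%), 37 of them higher. The 4 of the list were miR-34a-5p (0.79, limma adjusted p = 0.000168), miR-26a-5p (0.48, 0.0142), miR-29a-3p (0.40, 0.0350) and let-7a-5p (0.39, 0.0219). The list's median log2 difference was 0.34 in Th2 with Media and 0.33 in Th2_IL33 with Media_IL33, beside 0.063 and 0.080 over all tested miRNAs, and beside 0.11 and 0.16 for the family. In both IL-33 comparisons 0 of 8 passed in limma, with medians of -0.013 in medium-grown and 0.012 in Th2-grown cells.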

How the data were processed

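Total RNA from each of 16 RAW264.7 cultures was labelled with Cy3 and read on an Agilent mouse miRNA array of its own. The deposited scanner files hold spot intensity after background subtraction, with no normalization between arrays, made by Agilent Feature Extraction 10.7.3.1 per the file headers. The authors' deposited table holds probe intensity made with Partek 6.6 and RMA, per the submitters' processing notes. Its columns share 1 distribution (median 0.428, maximum 114686), which is that of quantile normalized linear values, and it served as an alternative. There were 0 further columns of sample values.

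Control and outlier spots were left out, spots averaged per probe, and the 2 probes of a member summed. The scale of an array was the 75th percentile of the 178 miRNAs that all arrays detected. Values under 0.0353 were set to that floor before log2, and no member value was as low. Tests covered 231 miRNAs, those detected throughout at least 1 group. limma 3.58.1 in R 4.3.3 fitted group means to the 16 arrays (12 residual degrees of freedom) and used Benjamini-Hochberg adjustment and a threshold of 0.05, after a check on simulated data. Ratios were tested by exact permutation in scipy 1.17.1. The number of arrays limits precision, with a median standard error of 0.17.

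The labels' descriptions give same-numbered arrays of the 4 groups 1 shared experiment letter, which is where the pairing comes from. Same-numbered arrays of different groups deviated together with a median r of 0.112 (24 pairs, -0.694 to 0.728, 14 of them over 0.1), and other pairs with -0.0482 (72 pairs). The text names the 4 members, 4 lists of relatives, and the 3 miRNAs closest to each member. Members and lists were chosen with earlier results of these data known. Alternatives were other scalings, background correction, quantile normalization, the authors' table, the brighter probe, a stricter filter, blocks for experiment and slide, array weights, and leaving out arrays.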

Additional observations from a re-analysis of the deposited data

Results flagged for a closer look

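In 16 sets of 4 arrays (4 members in 4 groups), 2 had 1 array far from the other 3, where chance gives about 1 in 20. miR-15a-5p in Th2 replicate 3 was 0.640, the lowest of its group, at a gap of 0.894 of the group's range. miR-15b-5p in Th2_IL33 replicate 3 was 1.64, the lowest of its group, at a gap of 0.930 of the range. Both arrays are of experiment 3, as is Media replicate 3, the lowest array for all 4 members. Media_IL33 replicate 3 lay above its group mean for all 4.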

How the results depend on the processing

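The fits gave 784 alternative values of the members' log2 differences. Of these 664 kept direction and side of the threshold, 6 newly passed, 16 no longer passed, and 98 changed sign. The largest difference that changed sign was 0.16 in size (miR-16-5p, Th2 with Media), and no difference that passed changed sign. Under no planned setting did more than 1 member pass, and that member was miR-322-5p each time. Its differences were positive under all 28 alternatives in Th2 with Media (0.086 to 0.55), Th2_IL33 with Media_IL33 (0.22 to 0.47), Th2_IL33 with Media (0.11 to 0.58) and the averaged Th2 contrast (0.15 to 0.48). The lowest value of each of these 4 came with normexp, for a reason that was not tested.

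The number of members past the threshold was 1 instead of 0 in Th2_IL33 with Media_IL33 with normexp, with array weights, and without Media 1, Media 3 and Th2_IL33 2 together. Leaving out 1 array gave 0 to 1 members in Th2 with Media, Th2_IL33 with Media_IL33, Th2_IL33 with Media and the averaged Th2 contrast. In that contrast it was 0 instead of 1 with the percentile over all miRNAs, quantile normalization, the authors' table, the brighter probe, the slide block and both blocks together (0.39, limma adjusted p = 0.0598). The experiment number as a replicate block changed no member's call, with miR-322-5p at a limma adjusted p of 0.213 in Th2 with Media, 0.173 in Th2_IL33 with Media_IL33 and 0.0400 in the averaged contrast, and 0 members past the threshold in each planned comparison. The cause of these shifts was not tested.

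The values of changed sign, none past the threshold, were as follows. In Th2 with Media, miR-15a-5p was -0.0135 with normexp, -0.0552 with the brighter probe and -0.028 with array weights. miR-15b-5p was -0.0315 with the percentile over all miRNAs, -0.0172 with quantile normalization, -0.0445 with normexp, -0.11 in the authors' table, -0.0894 with the brighter probe, -0.125 with array weights and -0.108 without the 3 arrays, and miR-16-5p was -0.0334 in the authors' table. In Th2_IL33 with Media_IL33, miR-15b-5p and miR-16-5p were -0.039 and -0.0722 with quantile normalization, -0.042 and -0.0102 in the authors' table and -0.0189 and -0.0343 with the brighter probe. In Th2_IL33 with Media, miR-15b-5p was -0.0233 with normexp and miR-16-5p -0.00767 with quantile normalization, and the pair were -0.143 and -0.145 in the authors' table, -0.0507 and -0.0343 with the brighter probe, -0.0719 and -0.111 with array weights, and -0.115 and -0.0693 without the 3 arrays. In the averaged Th2 contrast they were -0.0281 and -0.000356 with quantile normalization and -0.0758 and -0.0218 in the authors' table, and miR-15b-5p was -0.0541 with the brighter probe.

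In Media_IL33 with Media, miR-15a-5p, miR-16-5p and miR-322-5p were 0.085, 0.0282 and 0.0757 with the percentile over all miRNAs, and 0.0321, 1.43e-05 and 0.0116 with the brighter probe. With quantile normalization all 4 were positive (0.0666, 0.0815, 0.0646 and 0.0838 in the order of the text). miR-15a-5p was 0.136 in the authors' table, 0.00451 with outlier spots kept and 0.0624 without the 3 arrays, and miR-16-5p was 0.0091 with both blocks. In Th2_IL33 with Th2, the slide block gave -0.0209, -0.00502, 0.0405 and -0.0671 for the 4 members. miR-16-5p was 0.0218 with the percentile over all miRNAs and 0.126 with both blocks, which gave -0.00338 for miR-322-5p, and miR-15b-5p was -0.0332 in the authors' table and -0.0072 without the 3 arrays. In the interaction, miR-16-5p was 0.179 with array weights, 0.0232 in the authors' table, 0.0444 with outlier spots kept, 0.0599 with the slide block, 0.117 with both blocks and 0.0074 without the 3 arrays. miR-15a-5p was -0.0612 in the authors' table, miR-15b-5p -0.0218 with quantile normalization, and miR-322-5p -0.0782 with quantile normalization and -0.0196 with the slide block.

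Leaving out 1 array at a time gave these ranges where the sign changed. They were -0.0586 to 0.236 for miR-15a-5p and -0.175 to 0.132 for miR-15b-5p in Th2 with Media, and -0.159 to 0.148 for miR-15b-5p and -0.0411 to 0.187 for miR-16-5p in Th2_IL33 with Media. They were -0.129 to 0.165, -0.294 to 0.0132, -0.173 to 0.0543 and -0.226 to 0.158 for the 4 members in Media_IL33 with Media, and -0.0273 to 0.0918 for miR-15b-5p and -0.143 to 0.0195 for miR-16-5p in Th2_IL33 with Th2. In the interaction they were -0.0523 to 0.242 for miR-15a-5p, -0.139 to 0.0888 for miR-16-5p and -0.123 to 0.261 for miR-322-5p, and in the averaged Th2 contrast -0.0201 to 0.134 for miR-15b-5p. The ratio of miR-322-5p to miR-15a-5p in Th2_IL33 with Media_IL33 was -0.000462 with quantile normalization.

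Counts over all miRNAs moved with the settings too. Th2 with Media called 22, and 64 with array weights. Th2_IL33 with Media_IL33 called 22, with 12 by the percentile over all miRNAs, 14 in the authors' table, 71 with array weights and 36 as the most without 1 array. Th2_IL33 with Media called 24, 38 with quantile normalization, 42 with the replicate block and 49 with both blocks, and the averaged Th2 contrast 46 and 98 with array weights. The share of calls that were higher in Th2 with Media was 90.9%, against 80% with the percentile over all miRNAs, 70% with the brighter probe, 62.1% with quantile normalization, 62.5% in the authors' table, 48.4% with array weights, 56.7% without Media replicate 3 and 76.2% without the 3 arrays. A fit without the detection filter was not run, since 866 of 1247 miRNAs then have no variance at the floor. On 2 of 4 Media arrays neither probe of miR-322-5p was well above background, so its folds against Media rest in part on signals near background.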
